A study of Mus musculus with 10 samples.

Results

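Exon-class peaks are m6A-RIP peaks that the deposited tables place in an exon of a protein-coding gene without naming it coding sequence, UTR, start codon or stop codon. They were taken as every row with class exon and gene biotype protein_coding, giving 3408 peaks of 1203 genes among 32804 peaks in 4 distinct lists. The lists come from liver of wild-type C57BL/6J mice at day 1, 1 week, 2 weeks and 8 weeks after birth, with 1 IP and 1 input sample deposited per age and a pair of animals per age in the study's methods. A further table for 4 weeks repeated the 2-week table in every column that places or scores a peak (only spellings of gene names differed in 12 rows), so it was counted once, and that list is called the 2/4-week table because it stands under both ages. Day 1 had 1114 exon-class peaks, 1 week had 913, the 2/4-week table had 909 and 8 weeks had 472. No age had a replicate list, so no test between ages was possible. The intervals given are Wilson 95% intervals (Newcombe 95% intervals for differences), which cover counting error only. Deposited fold values were used as given, with no adjustment from list to list. Folds printed in order of age therefore describe each list by itself and do not measure a change in methylation with age.

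N6-methyladenosine (m6A) is written on nuclear RNA by the Mettl3-Mettl14 complex, most often at an adenosine in the sequence GGAC or its wider form DRACH, and is densest in long internal exons and around stop codons. One gene usually gives several isoforms. Some of these, annotated as retained_intron or processed_transcript, keep an intron or lack a reading frame and so have exons but no coding sequence or UTR. The feature that a peak is assigned to can depend on the isoform used. The study's methods kept the longest isoform where a gene had several, and do not give the rule for the class.

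Short stretches of 8 exon-class peaks, picked to hold GGAC, show the 2 kinds of place these peaks came from. Each is 30 bases long, from the RefSeq copy of the GRCm38 (mm10) genome, 5′ to 3′ on the gene's strand, and the capitals mark the GGAC nearest to the middle of the peak. The first 5 come from peaks whose middle lay only in exons of isoforms that are not protein-coding, and the last 3 from peaks in exons that protein-coding isoforms also use. A window can lie off the middle of its peak, as in Cyp2a22, whose peak reached toward the stop codon of the protein-coding isoform.
Sfswap: agctggccagaacGGACacggttaatgacc
Hsd3b3: gagaaaacaagctGGACattggtgaagaca
Zmynd11: acagcctttatgtGGACcaaaatagtgggc
Slc25a37: ggcttcctcccccGGACccagcaaccttca
Cyp2a22: aggggttaagaagGGACcacgtgcatggaa
Rreb1: gtgctgtggacctGGACtccagtggggagt
Rest: tctcaagaaaggaGGACcagaggaagctgg
Zfp451: ctagggacataatGGACtctgtagtcagag

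The windows lay at chr5:129502608-129502637 on the plus strand (Sfswap), chr3:98760264-98760293 on the minus strand (Hsd3b3), chr13:9689318-9689347 on the minus strand (Zmynd11), chr14:69249318-69249347 on the minus strand (Slc25a37) and chr7:26932237-26932266 on the minus strand (Cyp2a22). The other 3 lay at chr13:37932184-37932213 on the plus strand (Rreb1), chr5:77282363-77282392 on the plus strand (Rest) and chr1:33802461-33802490 on the minus strand (Zfp451). In all 8 the base after GGAC was A, C or T, which makes each a full DRACH match. As the windows were picked for GGAC, its presence in them is not a result. The peaks tried in H2-Q4, Smarcd3, Hsp90b1, Ldhd and Mrpl15 gave no such window.

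The absence of a coding or UTR class did not mean that the peaks lay outside coding sequence or UTR. Set against the isoforms of GENCODE M21 (mouse build GRCm38), the middle base of 1871 of the 3408 exon-class peaks lay in the coding sequence of a protein-coding isoform of the same gene (54.9%, 53.2 to 56.6%). Another 1220 lay in a UTR of such an isoform (35.8%, 34.2 to 37.4%). Only 315 peaks (9.24%, 8.32 to 10.3%) lay solely in exons of isoforms of another type, of which 253 were in retained_intron, 42 in processed_transcript and 17 in nonsense_mediated_decay isoforms, and the genes of 2 peaks were not found in the annotation. These shares varied little between ages. Peaks in an exon of a protein-coding isoform made up 90.0% (88.1 to 91.7%) at day 1, 92.1% (90.2 to 93.7%) at 1 week, 90.0% (87.9 to 91.8%) in the 2/4-week table and 90.9% (88.0 to 93.2%) at 8 weeks, and the intervals overlapped.

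**Figure D1:**
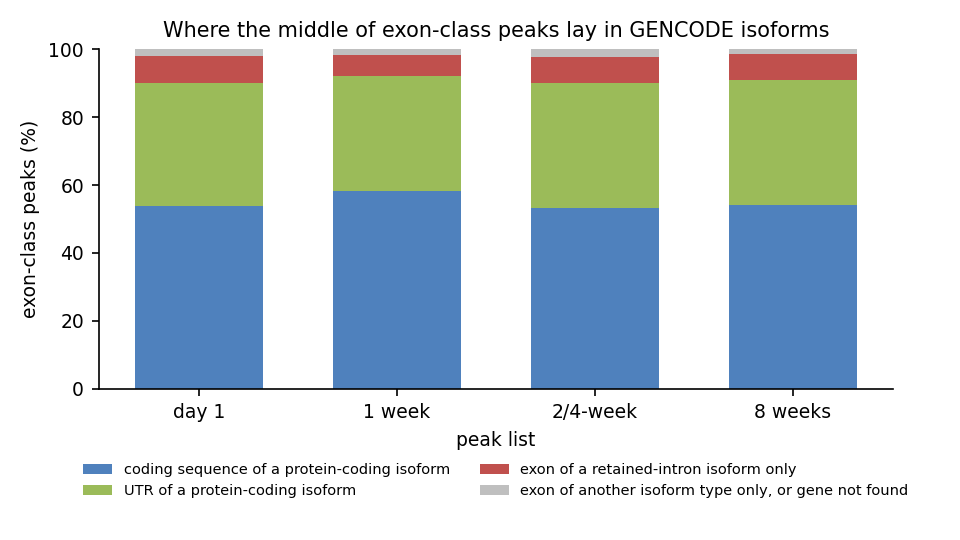
Stacked bars give the percentage of exon-class peaks in each of the 4 lists by the place of the peak's middle base in GENCODE isoforms of the same gene. The coding sequence part was 53.9% at day 1, 58.2% at 1 week, 53.4% in the 2/4-week table and 54.0% at 8 weeks, and the part in retained-intron isoforms only stayed between 6.13% and 8.08%.

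The genes of these peaks differed from the rest in their longest isoform. Measured as summed exon length, the longest isoform had no coding sequence in 737 of the 1202 genes with an exon-class peak that GENCODE holds (61.3%, 58.5 to 64.0%), against 102 of 6712 genes that had only other peaks (1.52%, 1.25 to 1.84%). In 633 genes that isoform was annotated retained_intron and in 102 it was processed_transcript. Counted by peak, 2164 of 3406 exon-class peaks (63.5%) stood in such genes, against 25 of 1250 5′ UTR-class peaks (2.00%), 95 of 14688 CDS-class peaks (0.647%) and 144 of 11595 3′ UTR-class peaks (1.24%). Of the exon-class peaks in these genes, 2151 of 2164 (99.4%) had their middle in an exon of that longest isoform. Seen from the other side, 839 genes with a peak had a longest isoform without coding sequence, and 737 of them (87.8%, 85.5 to 89.9%) had an exon-class peak. In 732 of these 737 genes every peak at every age was exon class, including 484 of the 489 genes with several peaks. These counts describe the label and are not a measure of methylation, and which step of the processing gave the class was not tested. Where the longest isoform was taken by genomic span from first to last exon, it had no coding sequence in 9.90% of the genes with an exon-class peak and in 1.64% of those with only other peaks.

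**Figure D2:**
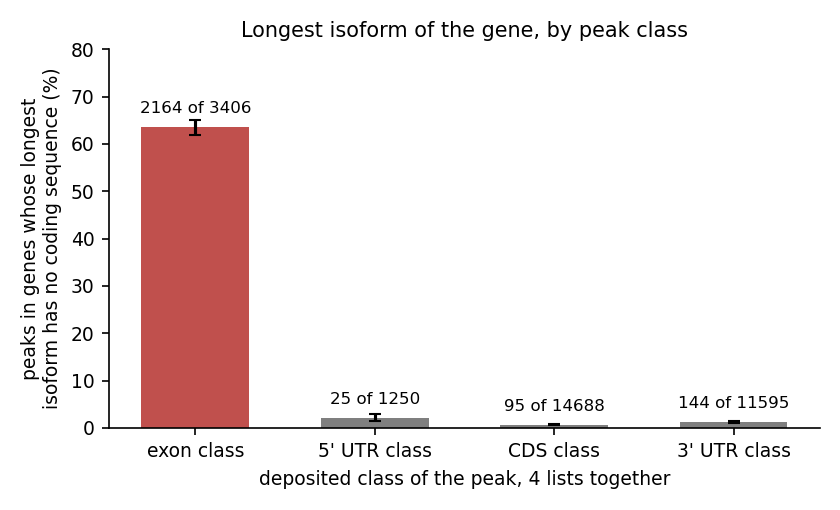
Bars give, for each deposited class over the 4 lists together, the percentage of peaks in genes whose longest isoform by exon length has no coding sequence, with Wilson 95% intervals and the counts above each bar. The exon-class bar stood at 63.5%, and the 5′ UTR, CDS and 3′ UTR bars at 2.00%, 0.647% and 1.24%.

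The genes with a noncoding longest isoform had a median of 7 annotated isoforms, 3 of them without coding sequence, and those with a coding longest isoform had 4 and 1. Rreb1, a zinc finger transcription factor of Ras signalling, gave the highest fold enrichment of IP over input in this set. Its best peak reached 693-fold at day 1, 893-fold at 1 week, 1050-fold in the 2/4-week table and 213-fold at 8 weeks. The best peak of each age lay in coding sequence of protein-coding isoforms and 2 weaker ones lay in a UTR, yet all 11 Rreb1 peaks were exon class, and the longest isoform, Rreb1-205, is a processed_transcript of 9702 nt. Furin, the protease that trims pro-proteins in the secretory pathway, gave 99.8-fold at day 1, 711-fold at 1 week, 99.1-fold in the 2/4-week table and 171-fold at 8 weeks, each with its middle within 200 nt of the stop codon. Its longest isoform, Furin-205, is a retained_intron isoform of 5736 nt. Tnrc6c, a scaffold of microRNA silencing, had 156-fold, 118-fold, 163-fold and 120-fold best peaks in the same order of ages, and its longest isoform (Tnrc6c-205, 11590 nt) is also retained_intron. Tnks1bp1, which binds the poly-ADP-ribose polymerase tankyrase, had 18 exon-class peaks over the 4 lists, all in coding sequence. Plekhg3 had 15, of which the best reached 165-fold, and Uaca had 13, of which the best reached 79.0-fold.

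The remaining 1242 exon-class peaks, in 465 genes, had a longest isoform with coding sequence, and 1226 of them lay on it. There the middle fell in coding sequence for 891 (72.7%), in 3′ UTR for 296 (24.1%) and in 5′ UTR for 39 (3.18%). Of these 1226, 1186 (96.7%, 95.6 to 97.6%) lay in an exon that holds both coding sequence and UTR, against 20301 of 27244 other peaks (74.5%, 74.0 to 75%). Those exons were long, with a median of 3900 nt (quartiles 2294 and 5547) against 1927 nt (971 and 3428) for other peaks, and their isoforms had a median of 5 exons against 9. These peaks also covered a stop codon more often, in 38.2% (35.5 to 40.9%) against 20.9% (20.4 to 21.4%).

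The exon class went with a stretch of the exon. A stretch here is the coding sequence or the UTR within 1 exon of the longest isoform. Of 475 stretches with an exon-class peak, 429 (90.3%) held exon-class peaks only, and so did 266 of the 312 with several peaks (85.3%). Rest, the repressor of neuronal genes, had 8 peaks in all 4 lists in the 2279 nt of coding sequence within its 5730-nt last exon, all exon class and up to 482-fold. Its 4 peaks in an earlier 883-nt coding stretch were all CDS class. In Tet2, the 5-methylcytosine oxidase, 8 peaks in a 1451-nt coding stretch of a 4512-nt exon were exon class, and 14 peaks in a 3160-nt coding stretch upstream were CDS class. Zfp451 had 4 exon-class peaks in 1491 nt of coding sequence, with 809-fold at day 1, 312-fold at 1 week, 331-fold in the 2/4-week table and 55.7-fold at 8 weeks, while 5 peaks in the 9987-nt UTR of the same exon were 3′ UTR class.

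In other genes a UTR took the exon class. Zkscan1, a zinc finger protein, had 15 exon-class peaks in a 6343-nt 3′ UTR and 4 CDS-class peaks in a separate coding exon. Maf, a bZIP transcription factor, had the most exon-class peaks of any gene, 22, with 18 in its 1110-nt coding sequence and 4 in its 931-nt 5′ UTR, and 7 peaks in its 4319-nt 3′ UTR were 3′ UTR class. Maf was listed partly in near-duplicate: 109 of the 3408 exon-class peaks, from 20 genes with Maf among them, overlapped another exon-class peak of the same gene in the same list. What decides the label was not tested.

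The 315 peaks found only in isoforms that are not protein-coding came from 176 genes, and 247 of them (78.4%, 73.5 to 82.6%) lay within an intron of a protein-coding isoform. The other 68 lay outside the span of the protein-coding isoforms. Of the 176 genes, 118 had such a peak in 1 list, 26 in 2 lists, 26 in 3 lists and 6 in all 4. The strongest of these 6 was Sfswap, a splicing factor named for the Drosophila gene suppressor of white-apricot. Its peak in intron 1 of the protein-coding isoform Sfswap-201 spanned chr5:129502389-129502869 at day 1, with 195-fold enrichment, and stood at 455-fold at 1 week, 160-fold in the 2/4-week table and 281-fold at 8 weeks. Smarcd3, a subunit of BAF chromatin remodelling complexes, had 9 such peaks over all 4 lists in the retained_intron isoform Smarcd3-205, the best at 35.7-fold at day 1, 237-fold at 1 week, 49.8-fold in the 2/4-week table and 15.5-fold at 8 weeks. H2-Q4, a class I histocompatibility gene, had its top peak in a UTR (193-fold, 216-fold, 226-fold and 1010-fold in order of age) and 7 weaker peaks further on, in the retained_intron isoform H2-Q4-202 only, of 8.00-fold to 62.5-fold. H2-Q4, the Hsd3b, Cyp2a and Ugt2b genes and ribosomal protein genes have near-identical relatives or pseudogenes, so the source gene of their reads is uncertain.

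Genes with liver functions were among them. Hsd3b3, of the 3-beta-hydroxysteroid dehydrogenase family, had 1 peak in a processed_transcript exon within intron 1 of Hsd3b3-204, with 56.7-fold at day 1, 19.2-fold at 1 week and 38.1-fold in the 2/4-week table, and none at 8 weeks. Serpinc1, which encodes antithrombin, had a peak in a retained_intron isoform, within intron 1 of a protein-coding one, of 35.0-fold, 31.3-fold and 33.4-fold in the same 3 lists, also with none at 8 weeks. Cyp2a22, a cytochrome P450, had a peak of 40.2-fold in Cyp2a22-202 in the 2/4-week table. Slc25a37, mitoferrin, the mitochondrial iron importer of red cell precursors, had a 518-fold peak at chr14:69248866-69249615 in the 2/4-week table alone. Its middle lay in an intron of the protein-coding isoform and in exons of a nonsense_mediated_decay and a retained_intron isoform. At 8 weeks the lowest p of the caller belonged to weak peaks in Hsp90b1 (2.68-fold), an endoplasmic reticulum chaperone, and Ldhd (10.3-fold), D-lactate dehydrogenase, and after Sfswap to Mrpl15 (4.03-fold), a mitochondrial ribosomal protein.

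Some of these peaks crossed an exon border. Tmcc2 had such a peak across the 3′ end of intron 3 of Tmcc2-203 (19.1-fold at day 1). In Zmynd11, a reader of histone methylation, the peak at chr13:9689126-9689425 (20.5-fold at day 1) covered the 3′ end of intron 13 of Zmynd11-205, and its middle lay in that intron, as did that of the 1-week peak (77.1-fold). The 8-week peak there was 180 nt wide (9.31-fold), and its middle lay in coding sequence.

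The peaks in noncoding isoforms only were weaker than exon-class peaks as a whole. In this name noncoding means any type other than protein_coding. It takes in the 17 peaks in nonsense_mediated_decay isoforms, in which coding sequence was not looked for. Their median fold was 11.9 (95% interval 10.5 to 13.1), against 18.2 (17.4 to 18.9) for all exon-class peaks and 19.4 (18.9 to 19.7) for other peaks of protein-coding genes. Fewer of them held GGAC, 55.6% (50 to 60.9%) against 74.4% (72.9 to 75.9%) of all exon-class peaks and 75.1% (74.6 to 75.6%) of other peaks. They were also narrower, with a median of 181 nt against 240 nt and 241 nt. In the central 100 nt of each peak, where width has no part, GGAC stood in 31.4% (26.6 to 36.8%) of them, in 47.2% (45.5 to 48.9%) of all exon-class peaks and in 46.5% (45.9 to 47.1%) of other peaks. The broader DRACH, searched on the gene's strand like GGAC, was in 97.5%, 98.7% and 98.7%, so it does not separate peaks of this width.

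By list, the exon-class peaks resembled the other peaks in motif content. GGAC was found in 76.5% of exon-class peaks against 78.6% of other peaks at day 1, a difference of -2.08 percentage points (-4.80 to 0.475). At 1 week it was 76.0% against 75.4% (difference 0.584, -2.44 to 3.41), in the 2/4-week table it was 74.6% against 74.0% (0.614, -2.48 to 3.52), and at 8 weeks 66.1% against 69.5% (-3.37, -7.97 to 0.990). Each interval holds 0. Both groups were narrower at 8 weeks, with median widths of 270, 240, 240 and 181 nt for exon-class peaks from day 1 to 8 weeks and 271, 241, 241 and 181 nt for other peaks.

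Their median fold enrichment was somewhat lower than that of other peaks in each list. The median fold of exon-class peaks was 17.3 at day 1 (95% interval 15.6 to 18.9), 20.4 at 1 week (18.9 to 21.8), 17.6 in the 2/4-week table (16.2 to 19.3) and 16.9 at 8 weeks (15.5 to 20.9). For other peaks it was 19.6 (18.9 to 20.3), 21.1 (20.4 to 21.8), 18.2 (17.6 to 18.7) and 19.7 (18.3 to 20.4). The intervals touched or overlapped in every list. Other peaks mix classes with unlike folds. At day 1 the median was 22.4 (21.5 to 23.2) for CDS-class peaks, 17.9 (16.8 to 18.9) for 3′ UTR-class peaks and 13.3 (12.6 to 15.4) for 5′ UTR-class peaks.

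Distance to the stop codon did differ. It was measured along the genome, with introns counted, to the nearest stop codon of any protein-coding isoform. Exon-class peaks of genes with a coding longest isoform also lay in longer exons than other peaks (median 3900 nt against 1927 nt). The part of exon structure in the difference was not tested. The middle of 34.3% of exon-class peaks lay within 200 nt of a stop codon of a protein-coding isoform at day 1, against 25.7% of other peaks, a difference of 8.57 percentage points (5.68 to 11.6). The difference was 10.6 points at 1 week (7.45 to 13.9), 11.6 points in the 2/4-week table (8.35 to 14.9) and 6.66 points at 8 weeks (2.33 to 11.2). Peaks of genes with a coding longest isoform were nearer, with 41.4% (38.7 to 44.1%) within 200 nt over all lists, against 31.0% (29.0 to 32.9%) for those of genes with a noncoding longest isoform. CDS-class peaks stood at 18.4% and 3′ UTR-class peaks at 36%, and the peaks in noncoding isoforms only at 2.24%.

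Counted by peak, exon-class peaks were overlapped in at least 1 other list about as often as other peaks were. These overlaps rest on the peaks held in the tables used here, which may not be every peak that was called. At day 1, 793 of 1114 (71.2%, 68.5 to 73.8%) were overlapped by 1 base or more, strands matched, in at least 1 other list, against 71.3% of other peaks, with 70.8% over all peaks of that list. At 1 week the shares were 84.2% and 84.6% (84.2% over all peaks), in the 2/4-week table they were 80.7% and 80.6% (80.2%), and at 8 weeks 75% and 74.8% (73.7%). The differences ran from -0.357 to 0.201 percentage points, and the widest of their intervals was -4.10 to 4.13 at 8 weeks. Among the 12 single pairs of lists, the interval of the difference left out 0 in 2, both toward 1 week. Day 1 peaks were met at 1 week in 56.7% of exon-class against 59.8% of other peaks (-3.10, -6.21 to -0.0318), and peaks of the 2/4-week table in 61.8% against 65.4% (-3.53, -6.91 to -0.246). These intervals are not adjusted for the 12 pairs. Neither left out 0 with an FDR of 0.001 or less (-1.84, -5.34 to 1.59, and -2.87, -6.73 to 0.811), with an overlap of 50% of both peaks or with lists limited to equal length, and both did with overlaps of exon blocks. With the overlap of 50%, exon-class peaks were instead met more often than other peaks at day 1, by 4.72 points from 1 week (1.30 to 8.11), 4.51 points from the 2/4-week table (1.07 to 7.94) and 6.4 points from 8 weeks (2.19 to 10.9), so the pair differences depend on how overlap is counted. In all 3 other lists, 17.8% of exon-class peaks of day 1 were overlapped (19% over all peaks), 21.5% of 1 week (21.7%), 21.8% of the 2/4-week table (22.5%) and 43.9% of 8 weeks (44%). The 8-week list is the shortest, so each of its peaks meets longer lists.

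**Figure D3:**
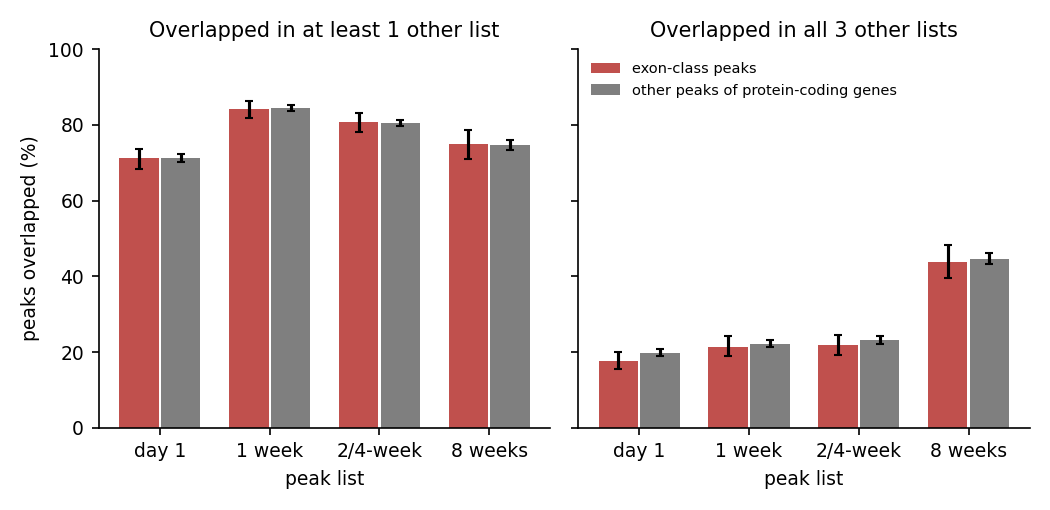
Paired bars give the percentage of peaks of each list that a peak of at least 1 other list (left) or of all 3 other lists (right) overlaps, for exon-class peaks and for other peaks of protein-coding genes, with Wilson 95% intervals. The pairs differed by -0.357 to 0.201 percentage points on the left, and on the right the day 1 pair was the widest at 17.8% and 19.8%.

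Within the exon-class peaks, recurrence went with the kind of place. At day 1, 68.7% (65.2 to 72.0%) of those in genes with a noncoding longest isoform recurred in at least 1 other list, against 75.5% (71.1 to 79.4%) of those in genes with a coding one. The pairs were 82.3% and 87.2% at 1 week, 76.8% and 88.3% in the 2/4-week table, and 68.9% (63.4 to 73.8%) and 86.1% (80.1 to 90.6%) at 8 weeks. The intervals overlapped at day 1 and 1 week. The median folds of the peaks in genes with a noncoding longest isoform were lower in each list, at 14.7, 18.9, 15.8 and 16.8 from day 1 to 8 weeks against 24.9, 22.5, 23.4 and 21.2. Peaks in noncoding isoforms only, nearly all of which belong to the genes with a noncoding longest isoform, recurred in 51.4%, 73.2%, 60.4% and 50% from day 1 to 8 weeks, against 73.4%, 85.2%, 83.0% and 77.4% of the other exon-class peaks. Their median folds were also lower, at 11.2, 12.4, 13.5 and 11.3 against 17.9, 21.1, 18.7 and 18.3, and the part of peak strength in either difference was not tested.

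The class was mostly the same where peaks of different lists overlapped. It labels a place, so overlapping peaks of 1 gene largely share it, and this is not a separate result. The same rate was not taken for CDS-class or UTR-class peaks. The 12 ordered pairs of lists count an overlap from both sides. Over them, 5040 of 5295 overlaps of an exon-class peak with a peak of the same gene met exon-class peaks only (95.2%, from 91.4% to 96.8% by pair). The exceptions were 171 peaks of 120 genes, and 168 of these peaks were in genes with a coding longest isoform. The strongest were Jade1, a subunit of a histone acetyltransferase complex, with 993-fold at 1 week, and Ppp1r3c, which targets protein phosphatase 1 to glycogen, with 919-fold at 1 week. Both were overlapped by a 3′ UTR-class peak of another list beside an exon-class one, as were Zfp451, Trak2 and Sema6d. Jade1 gave 209-fold, 993-fold, 374-fold and 47.9-fold from day 1 to 8 weeks, and Ppp1r3c 251-fold, 919-fold, 367-fold and 75.7-fold.

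By gene, 204 of the 1203 genes (17%) had an exon-class peak in all 4 lists, 261 in 3, 262 in 2 and 476 (39.6%) in 1. Of the 7033 genes with peaks of other classes, 1762 (25.1%) had one in all 4 lists and 2057 (29.2%) in 1, so by gene the exon-class peaks stood in fewer lists, although the genes were not matched for their number of peaks. Of the genes with 1 list, 196 were in day 1, 91 in 1 week, 113 in the 2/4-week table and 76 in 8 weeks. Among the genes in all 4 lists, those whose weakest list still had a high fold included Rest, Rreb1, Tet2, H2-Q4, Sfswap, Klhl9, Zkscan1, Tnrc6c and Furin. Klhl9, a substrate adaptor of a cullin ubiquitin ligase, had 5 peaks, all in its single coding exon, of up to 381-fold, 325-fold, 228-fold and 160-fold in order of age.

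**Figure D4:**
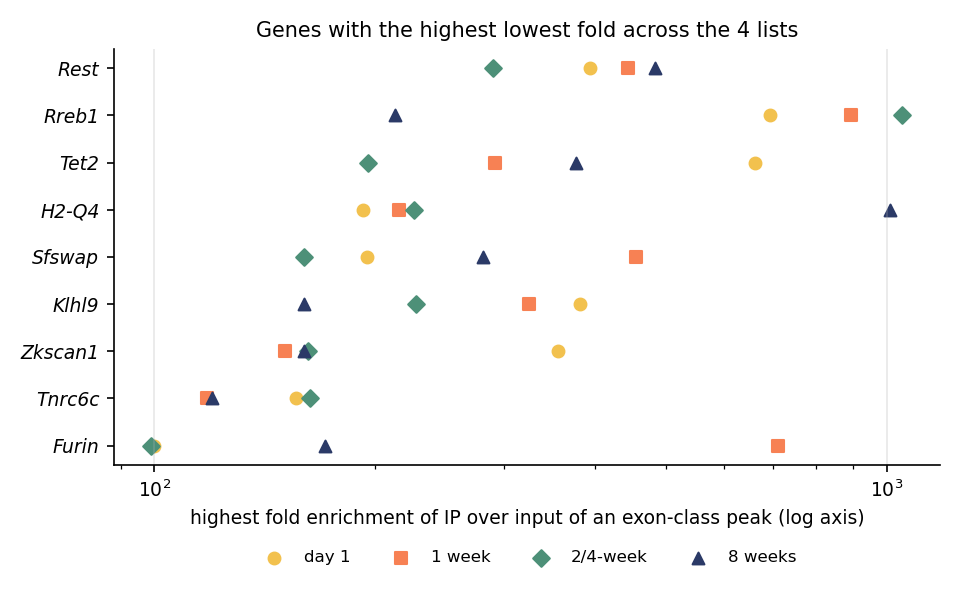
Each row is 1 of 9 genes among the 10 with the highest weakest fold over the 4 lists, and each point is the highest fold enrichment of an exon-class peak of that gene in 1 list, on a log axis. Rreb1 reached 1050-fold in the 2/4-week table and H2-Q4 1010-fold at 8 weeks. The folds were not adjusted from list to list, so genes can be compared inside 1 list. The spread of a row is not a measure of change with age.

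Exon-class peaks stood at day 1 and 1 week only in 103 genes (8.56%), against 541 genes for other peaks (7.69%), and in the 2/4-week and 8-week lists only in 17 genes (1.41%), against 123 (1.75%). The shares were close, and both sets follow the unequal lengths of the lists. Ranked by the weaker of their folds, the first of the early set were Fhdc1 (208-fold at day 1 and 77.1-fold at 1 week), Rbm38 (135-fold and 52.3-fold), an RNA-binding protein, Ctif (50.4-fold and 87.2-fold), a translation initiation factor of the nuclear cap, Marcksl1 (66.0-fold and 39.6-fold) and Spg21 (40.3-fold and 42.9-fold). Of these, Ctif still had peaks of another class in both later lists, and Marcksl1 a 3′ UTR-class peak at 8 weeks. By the same rank the first of the late set were Sos1 (73.2-fold in the 2/4-week table and 93.1-fold at 8 weeks), an exchange factor of Ras, Pyroxd1 (42.9-fold and 121-fold), Pdk2 (19.9-fold and 39.5-fold), a kinase of pyruvate dehydrogenase, Ano8 (19.3-fold and 26.8-fold) and Nub1 (15.8-fold and 238-fold). Sos1 had a 3′ UTR-class peak at 1 week. With 1 list per age, a missing peak may be below the caller's threshold and does not show that the RNA was unmodified.

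Genes of RNA splicing and of the ribosome gave exon-class peaks in a larger share than all genes did. Of 7914 protein-coding genes with any peak, 15.2% had an exon-class peak. In the list of splicing factors it was 11 of 24 (45.8%, 27.9 to 64.9%), in that of ribosomal proteins 10 of 20 (50%, 29.9 to 70.1%) and in that of Clk kinases, cyclin L and related kinases 6 of 9 (66.7%, 35.4 to 87.9%). These lists were not tested, and that of splicing factors is not complete, as it does not hold Sfswap. The genes of these lists also had a noncoding longest isoform more often, in 10 of 24, 8 of 20 and 5 of 9. Over all genes it was 839 of 7914. A noncoding longest isoform is the property that the exon class goes with.

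Among the splicing factors, Srsf4, an SR protein, had exon-class peaks in all 4 lists, with best folds of 28.4, 14.5, 23.5 and 17.6 from day 1 to 8 weeks. Srsf5, another SR protein, had 2.68, 15.5 and 8.93 in the first 3 lists. Srrm1, a splicing coactivator, gave 1.57 at 1 week, 9.95 in the 2/4-week table and 49.6 at 8 weeks. Rbm25 (3.22 at day 1, 11.7 in the 2/4-week table and 16.0 at 8 weeks), U2af2 (30.5 at 1 week and 7.61 in the 2/4-week table), which binds the polypyrimidine tract, and Snrnp70 (6.54 at 1 week and 29.1 at 8 weeks), a protein of the U1 particle, had peaks in coding sequence or UTR. Rbm5, Ddx17, Mbnl2, Srsf3 and Luc7l2 had 1 or 2 each, of 4.48-fold to 22.2-fold, and the Srsf3 peak (13.8-fold, 2/4-week table) lay only in retained_intron isoforms within intron 3. Of these 11 genes, Ddx17 and Luc7l2 had a protein-coding longest isoform. Cyclin L1 (Ccnl1), a partner of kinases that act on splicing, reached 4.90-fold, 49.4-fold, 37.1-fold and 128-fold from day 1 to 8 weeks, and Srpk1, a kinase of SR proteins, 54.5-fold, 51.6-fold and 19.9-fold in the first 3 lists. Cdk13 had 223-fold at 1 week, 74.1-fold in the 2/4-week table and 33.8-fold at 8 weeks.

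Among ribosomal proteins, Rpl14 (14-fold, 21.1-fold, 35.1-fold and 12.7-fold) and Rpl41 had exon-class peaks in all 4 lists, and Rps24 (61.5-fold) and Rps3 (18.9-fold) in 1 each. The hnRNP list gave 3 of 15 genes (20%, 7.05 to 45.2%), an interval that also holds the 15.2% over all genes. They were Hnrnpr (best 40.9-fold), Hnrnpll (31.5-fold) and Hnrnpa2b1 (16.4-fold).

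The m6A machinery gave 4 of 14 genes (28.6%, 11.7 to 54.6%), an interval that holds the 15.2% over all genes. Ythdc1, the nuclear m6A reader, had 11 exon-class peaks and no other class, with best folds of 59.5, 360, 209 and 80.5 from day 1 to 8 weeks. The best peaks at 1 week, 2/4 weeks and 8 weeks lay in coding sequence near chr5:86816697-86817260. The day 1 peak lay in intron 11 of the protein-coding isoform Ythdc1-203, in exons of the isoforms Ythdc1-207 (retained_intron) and Ythdc1-208 (nonsense_mediated_decay), where the later lists also had peaks of 8.46-fold to 68.3-fold. Rbm15, an RNA-binding adaptor of the m6A writer complex, had 10 exon-class peaks in its long coding exon, with best folds of 297, 308, 171 and 69.1. At day 1 this was 1 peak of 2874 nt, and at 8 weeks it was 4 peaks of 151 to 330 nt. Alkbh5, an m6A demethylase, had 1 at 10.5-fold in the 2/4-week table, and Igf2bp2, a reader, 1 at 18.3-fold at 8 weeks.

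The liver transcription factors gave 7 of 42 genes (16.7%, 8.32 to 30.6%), close to the 15.2% over all genes. Cebpb, a bZIP factor of the acute-phase response, had 46.2-fold at day 1, 23.3-fold at 1 week and 20.0-fold at 8 weeks in its coding sequence, and 3′ UTR-class peaks in all 4 lists. Onecut1 (93.9-fold at 8 weeks), Onecut2 (21.6-fold at 1 week), Hhex (12.2-fold, 2/4-week table), Nr1h3 (5.25-fold at day 1), which encodes the oxysterol receptor LXR-alpha, and Prox1 (3.58-fold at day 1) had 1 each. The Nr1h3 peak lay only in retained_intron isoforms.

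Of the lists of mature hepatocyte functions, only that of drug metabolism had an interval below the 15.2% over all genes. That list is not complete, as Cyp2a22, which had exon-class peaks, is not in it. A noncoding longest isoform stood in 2 of 44 drug metabolism, 1 of 39 plasma protein and 0 of 11 apolipoprotein genes, against 839 of all 7914 genes. No apolipoprotein gene had an exon-class peak (0 of 11 with any peak, upper limit 25.9%), 1 of 44 drug metabolism genes did (2.27%, 0.402 to 11.8%, with Ugt2b1 at 15.6-fold at day 1 and 8.50-fold at 8 weeks), and 5 of 39 plasma protein genes did (12.8%, 5.6 to 26.7%), with Serpinc1, Itih1 (30.4-fold) and Serpinf2 (10.6-fold) the strongest. None of the 12 hepatocyte markers, of which 5 or 6 had a peak of some class in each list, had an exon-class peak. Of all protein-coding genes with a peak, 827 of 5881 had one at day 1 and 687 of 5182 at 1 week. In the 2/4-week table it was 689 of 5171 and at 8 weeks 396 of 3249. A count of 0 among 5 or 6 genes therefore does not set the markers apart. The lists hold peaks and not expression levels, so these markers check the tissue only in part. Chromatin regulators gave 6 of 45, led by Tet2, Kdm5c (146-fold at day 1) and Asxl1 (139-fold at 1 week). The cell cycle list gave 4 of 34, with Cenpf (137-fold), Cdt1 (18.2-fold) and Cdc25a (7.71-fold) the strongest. All 4 had exon-class peaks at day 1, as had 827 of the 1203 genes, and Cenpf had peaks of other classes up to the 2/4-week table. The erythroid list gave 2 of 22, Bcl11a (129-fold) and Kel (9.81-fold). Both had exon-class peaks at day 1 only, as had 196 of the 1203 genes (16.3%), and the day 1 list is the longest. The circadian clock list gave 1 of 14 genes, the nonsense-mediated decay factors 1 of 12 (Upf3a, 8.11-fold), and the Zfp zinc finger genes 41 of 256 (16.0%), led by Zfp451, Zfp334 (399-fold at day 1) and Zfp687 (205-fold at day 1).

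**Figure D5:**
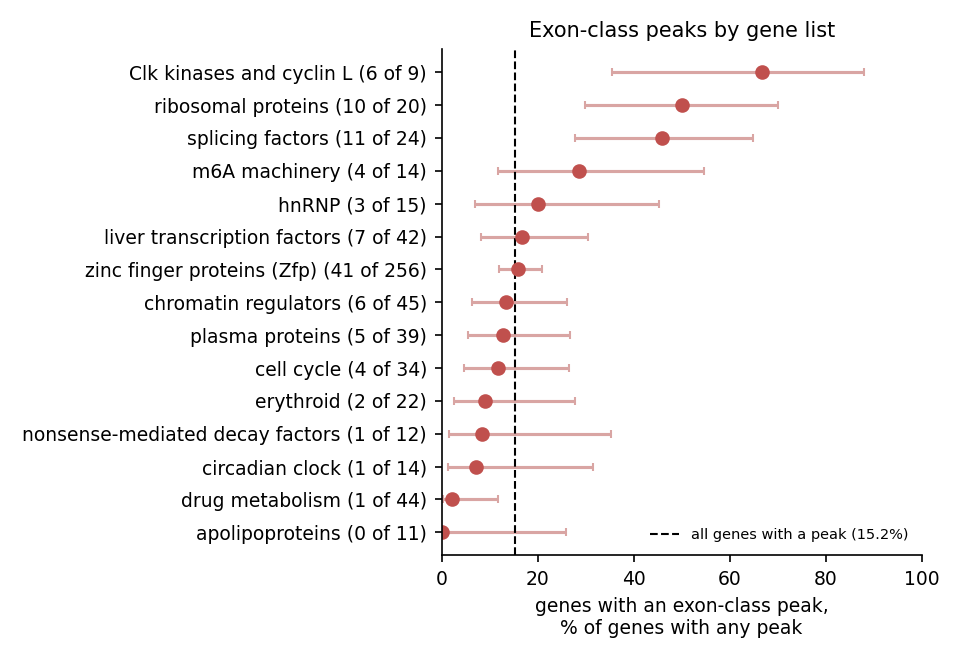
Points give, for each gene list, the percentage of its genes with any peak that had an exon-class peak in at least 1 list, with Wilson 95% intervals and the counts beside the names. The dashed line is the share over all protein-coding genes with a peak, 15.2%, and the intervals of the Clk kinase, ribosomal protein and splicing factor lists lay wholly above it, while that of the drug metabolism list lay wholly below it.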

How the data were processed

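m6A-RIP and input libraries of wild-type mouse liver were compared by the authors. According to the study's methods, HISAT2 placed the reads on mm10, exomePeak called regions enriched in IP relative to input, and the longest isoform was kept where a gene had several. How the animals of an age were combined, the annotation release and the rule for the class are not given in the sources used here. The deposited tables give each peak's exon blocks, class, gene, the caller's p-value, the fold enrichment of IP over input (a ratio) and the log10 FDR, which is a score here because minus infinity was written as text. The read depth behind the deposited values is unknown, so no floor can be given.

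From these tables, Python 3.11.15 with pandas 2.3.3, scipy 1.17.1 and pysam 0.24.0 was used to place the middle base of each peak's exon blocks on GENCODE M21 isoforms (GRCm38) through Ensembl gene IDs, to count same-strand overlaps of at least 1 base, and to search peak sequences in the RefSeq GRCm38 genome. Gene names turned into dates by a spreadsheet were restored for 20 exon-class peaks. The functions were tested on simulated data. The members, gene lists and named-gene rule were chosen with earlier results of these data known. Named were the 10 genes in all lists with the highest weakest fold, the 5 with most exon-class peaks, the 4 peaks per list with the lowest p in noncoding isoforms only, all genes of the splicing factor, m6A machinery and liver transcription factor lists, the 5 strongest whose class differed between lists, the 5 strongest of the early and of the late lists, and up to 3 of each other list. Cyclin L2, Clk2 and Clk3 fell outside this rule. Results for some genes that this rule names are not reported here.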

Additional observations from a re-analysis of the deposited data

How the results depend on the processing

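The limits are these. There was 1 list per age, so intervals cover counting error alone, and peaks of 1 gene are not independent. An FDR above 0.05 was listed for 0.898% of the day 1 exon-class peaks, 2.74% at 1 week, 3.41% in the 2/4-week table and 15.7% at 8 weeks. For other peaks of protein-coding genes it was 1.27%, 2.60%, 3.52% and 13.2% in the same order. The annotation release used for the deposited class is unknown, and GENCODE M21 stands in for it. No paired analysis was possible because each age has 1 list.

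The share of exon-class peaks among all peaks of protein-coding genes was 11.7%, 10.6%, 11% and 10.3% from day 1 to 8 weeks, and it kept within its interval with a fold of at least 5. With the lowest-p peak of each gene only it was 12.7% at day 1, 12.1% at 1 week and 12.3% in the 2/4-week table. The longest isoform had no coding sequence in 9.90% of the genes when taken by genomic span. Taken by exon length as in the report, the share was 61.0% without the 2/4-week table, an alternative chosen after seeing the data. Peaks in noncoding isoforms only fell to 7.77% at day 1 and 5.80% at 1 week with an FDR of 0.001 or less, and peaks in protein-coding exons were then 92.2% and 94.1%. Counting any base of the exon blocks in place of the middle gave 6.46%, 5.37%, 6.60% and 5.72% from day 1 to 8 weeks, with 93.5%, 94.5%, 93.4% and 94.1% in protein-coding exons. With an FDR of 0.001 or less, recurrence was 86.6% at 1 week and 83.7% in the 2/4-week table. Asking that the overlap cover 50% of both peaks gave 60.6%, 72.4%, 69.3% and 52.8% from day 1 to 8 weeks, and lists limited to equal length gave 78.9%, 88.1%, 84.9% and 62.1%. For overlap in at least 1 other list, none of these moved the difference from other peaks beyond its interval. For single pairs, the overlap of 50% moved it to 4.72 points for 1 week peaks met at day 1 and to 6.4 points for 8-week peaks met there, both beyond their intervals. GGAC in the central 100 nt was in 46.9%, 48.3%, 47.3% and 45.6%, and DRACH anywhere in 99.2%, 98.8%, 98.1% and 98.3%. An FDR of 0.001 or less gave median widths of 301, 271, 271 and 211 nt and median folds of 24.5, 27.6, 27.5 and 26.5. Within 500 nt of a stop codon lay 50.8%, 51.6%, 49.7% and 48.1%.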
